A study of Arabidopsis thaliana with 6 samples.

Results

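The data described here are the direct RNA sequencing library of Col-0 wild type *Arabidopsis thaliana* seedlings harvested at 14 days, which is 1 of the 6 samples of the series. It was chosen by its label, as the wild type column of the deposited isoform tables, and no measured value entered the choice. The study set *fio1-1* and *fio1-5*, mutants of the m6A methyltransferase gene *FIONA1* in the Col-0 background, against Col-0, and the labels list an Illumina and an Oxford Nanopore sample for each genotype. The sample titles and the table columns name the second mutant *fio1-2*, a working name that the labels themselves correct to *fio1-5*, and it is called *fio1-5* here. The tables hold 3 library columns that name no platform, and they are read as the Nanopore libraries because the methods describe the series so. Col-0 carries no mutation or transgene, and its seedlings were grown on MS plates under long days and pooled before RNA extraction. The hour of harvest is not given in the sources used here. There is a single Col-0 library, so the spread between plants or cultures is not known and no test was possible.

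In direct RNA sequencing a native RNA molecule is drawn through a protein pore, beginning at its poly(A) tail, and each read comes from 1 molecule. A seedling of this age has open rosette leaves, a shoot apex and a branched root, and its RNA is a mixture of all of them. In green tissue most nuclear photosynthesis transcripts are made in the light, and the circadian clock sets the hour at which many of them peak. In such a bulk sample, fewer cells of a type and less RNA per cell cannot be told apart.

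The Col-0 library holds 4602836 estimated counts, against 4351738 to 4683006 in the mutant libraries. Of the 33314 genes listed, 21223 had at least 1 count, 14958 at least 10, 6353 at least 100 and 753 at least 1000. A count of 0 allows up to 3 counts as a limit on 1 side, which is 0.652 CPM (counts scaled to the library total), and up to 3.69 counts in the intervals on both sides used for single genes. All intervals given are at 95%, exact Poisson for a count and Clopper-Pearson for a share, and cover counting error only. The counts were concentrated in few genes: the most counted gene took 5.54% of the library, the first 10 genes 12%, the first 100 genes 30.9% and the first 1000 genes 61.7%. The 484 most counted genes, 2.28% of those counted, made up 50% of all counts.

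Several genes that green cells are known to use were listed near 0, and these were picked out after their values were seen. *LHCB4.1*, a minor antenna protein of photosystem II, had 0 counts, against 2 in *fio1-1* and 1 in *fio1-5*. *PSBS*, which drives heat dissipation in strong light, had 11 counts (interval 5.49 to 19.7). *FBA1*, a Calvin cycle aldolase, had 13 counts, and *CA1*, the main chloroplast carbonic anhydrase, had 38. Genes often used as references were uneven as well. *ACT2* had 76 counts, whereas its relatives *ACT7* and *ACT8* had 2706 and 3815. *PP2AA3*, a phosphatase subunit, had 2 counts in Col-0, against 16 in *fio1-1* and 1 in *fio1-5*. A count near 0 in this table therefore cannot be read as absence of the transcript.

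**Figure D1:**
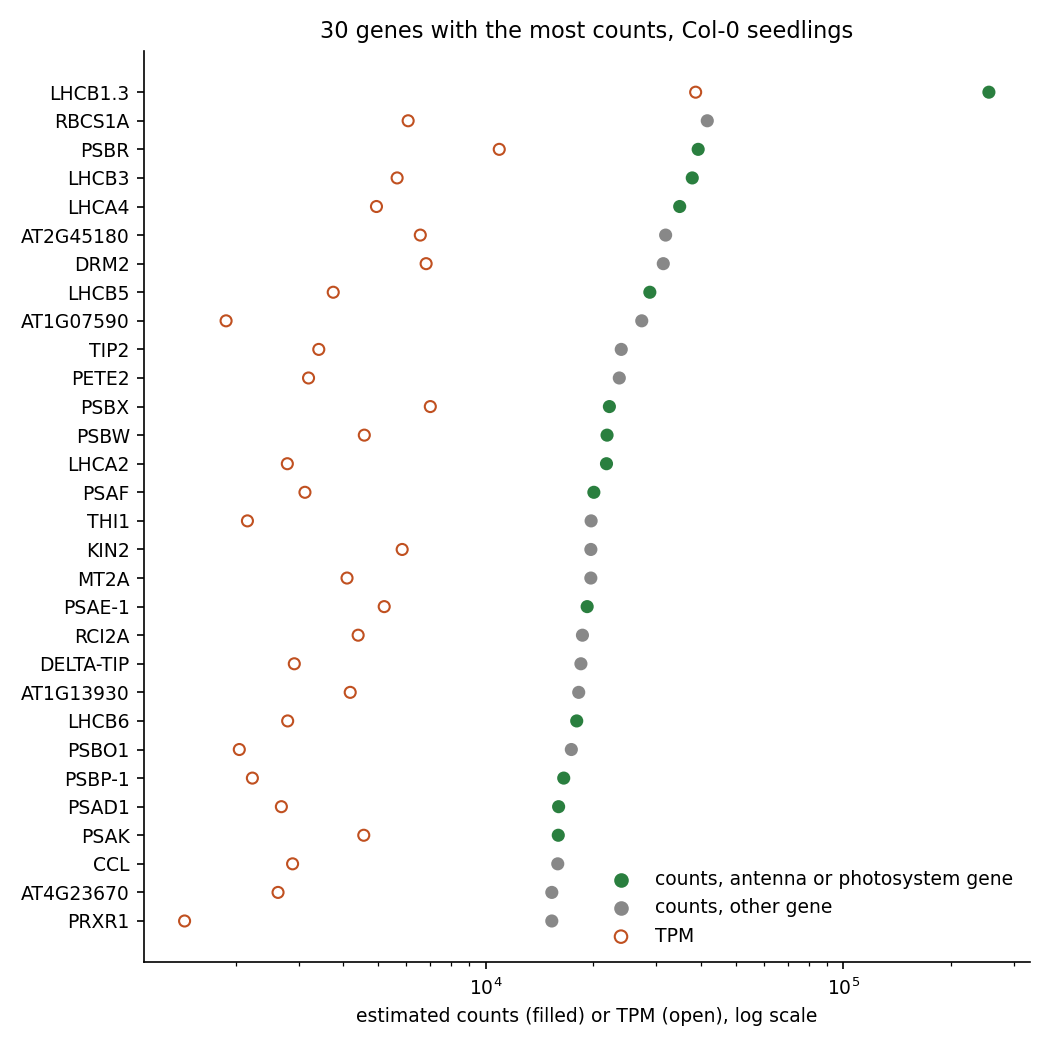
Estimated counts (filled points, with exact Poisson intervals that are narrower than the points) and deposited TPM (open points) of the 30 most counted genes in the Col-0 library, on a log axis. Genes whose RefSeq name matched the antenna or photosystem words are green, and *LHCB1.3* stands apart at 255151 counts while the next gene, *RBCS1A*, lies at 41644.

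Genes of the photosynthetic light reactions filled the top of the order. Of the 30 most counted genes, 14 carried an antenna or photosystem name in RefSeq. *PSBO1*, the oxygen-evolving subunit of photosystem II, is annotated in other words and was not among those 14, although it had 17358 counts. *LHCB1.3* (AT1G29930, also *CAB1*), the major chlorophyll a/b binding protein, had 255151 counts (interval 254162 to 256143), or 38640 TPM (transcript abundance scaled to length, as deposited). It lies on chromosome 1 at 10477885 to 10479114 of TAIR10.1 and was first on both scales. *RBCS1A* (AT1G67090), a Rubisco small subunit on chromosome 1 at 25048158 to 25049667, followed with 41644 counts and 6072 TPM. *PSBR*, a photosystem II subunit on chromosome 1, had 39274 counts but 10915 TPM, and so stood 4th in TPM. The antenna genes *LHCB3* (37806 counts) of photosystem II and *LHCA4* (34868 counts) of photosystem I came next.

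Among the remaining photosynthesis genes of the first 30, the antenna genes *LHCB5* (28772 counts), *LHCA2* (21767 counts) and *LHCB6* (17971 counts) encode minor or photosystem I light harvesting proteins. The photosystem II subunits *PSBX* (22176 counts), *PSBW* (21845 counts) and *PSBP-1* (16529 counts) and the photosystem I subunits *PSAF* (20067 counts), *PSAE-1* (19220 counts), *PSAD1* (15994 counts) and *PSAK* (15959 counts) lay within a narrow range. *PETE2*, the major plastocyanin, which carries electrons between the cytochrome complex and photosystem I, had 23637 counts. Of the 30 steps from a gene to the next in this order, 13 were smaller than counting error, so the order is firm for the first genes and loose within groups such as *THI1*, *KIN2* and *MT2A*.

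The other genes of the first 30 have varied roles. *AT2G45180*, annotated as a lipid transfer-like protein, had 31851 counts. *DRM2*, a dormancy and auxin associated gene, had 31373 counts. *TIP2* (23936 counts) and *DELTA-TIP* (18462 counts) encode tonoplast aquaporins, which let water cross the vacuole membrane. *THI1* (19716 counts) makes the thiazole part of vitamin B1. *KIN2* (19684 counts) and *RCI2A* (18645 counts) are cold-responsive genes, and *MT2A* (19680 counts) is a metallothionein, a small metal-binding protein. *AT1G13930* (18203 counts, annotated as oleosin-B3-like), *CCL* (15906 counts, a CCR-like protein), *AT4G23670* (15309 counts, a polyketide cyclase-like protein) and *PRXR1* (15308 counts, a peroxidase) closed the list.

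*AT1G07590*, annotated as a tetratricopeptide repeat protein, had 27314 counts and was 9th in counts but 80th in TPM. Its annotated span on chromosome 1, 2336477 to 2339391, holds the whole of the metallothionein gene *MT1A* on the same strand. *MT1A* had 0 counts. Reads of these overlapping genes may have been split by the counting, so both values are uncertain. In all, 11 of the 30 most counted genes overlap another annotated gene, 2 of them on the same strand. The share over all listed genes was not computed, so whether this number is unusual is not known.

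By RefSeq product names, the antenna and photosystem groups together held 68 nuclear genes, of which 65 were counted (95.6%, beside 73.2% of all nuclear protein-coding genes). They took 14.8% of the counts (interval 14.7 to 14.8) and 12.4% of the TPM. The antenna group alone, led by *LHCB1.3* and *LHCB3*, took 9.32% of counts over 27 genes, and the photosystem group, led by *PSBR* and *LHCB5*, took 7.28% over 52 genes. Some genes, *LHCB5* among them, belong to both groups. The Rubisco and Calvin cycle group, which fixes carbon dioxide, took 1.42% of counts with *RBCS1A* and *RBCS2B* (6972 counts) in front. Photorespiration, which recycles the product of Rubisco's reaction with oxygen, took 0.246%, with *SHM1* (3073 counts) and *GDCH* (2593 counts) most counted.

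Outside photosynthesis, transcription factors were the most numerous group. Of 1239 genes named as transcription factors, 923 were counted (74.5%, beside 73.2% of all nuclear protein-coding genes), and together they took 1.78% of counts with a median of 10 counts, close to the 13.0 of all those genes. *BBX14* (1808 counts) and *AT4G15545* (1585 counts) were the highest of them by name matching. Arabinogalactan and cell wall genes took 1.36%, led by *AGP15* (8126 counts) and *AGP12* (4621 counts). Aquaporins took 1.2%, led by *TIP2* and *PIP3* (8415 counts). Lipid transfer proteins took 1.13%, of which *AT2G45180* held most and *LTP5* had 2997 counts. Metallothioneins took 0.997% over only 8 genes, with *MT2B* (12702 counts) after *MT2A*. The 0 counts of *MT1A*, which lies within *AT1G07590*, are uncertain as described above, and so are this share and order.

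Groups for basic cell functions were present at similar shares. Ubiquitin genes, which mark proteins for breakdown, took 1.00%, with *UBQ1* (3781 counts) and *UBQ5* (3294 counts) first. Tubulin and actin genes, the cytoskeleton, took 0.846%, led by *ACT8* and *TUB4* (3366 counts). Peroxidases took 0.823%, led by *PRXR1* and *GPX1* (2337 counts), and heat shock proteins and chaperones 0.754%, led by the constitutive *HSC70-1* (3379 counts) and *J8* (2387 counts). Histones took 0.607%, with *AT4G40030* (3875 counts) and *HTA9* (2876 counts) first. Glutathione transferases, which conjugate toxic compounds, took 0.524%, led by *GSTF9* (7465 counts) and *GSTU19* (4150 counts). The genes that RefSeq names as jacalin lectins or beta-glucosidases took 0.298%, with the myrosinase *TGG1* (2388 counts) and *BGLU18* (2152 counts) first. This share leaves out *PYK10* (7287 counts) and *JAL30* (3263 counts), a beta-glucosidase and a jacalin-related lectin whose product names did not match the words.

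Translation was only partly captured by product names, because RefSeq names many ribosomal proteins without the words searched. The ribosome words found 24 genes with 0.281% of counts, *AT1G01100* (3155 counts) and *P40* (2014 counts) first, and the elongation factor words found 8 genes with 0.0936%, *AT1G07930* (1751 counts) and *AT1G07920* (893 counts) first. The KEGG ribosome pathway in the deposited annotation, added after the values were seen, holds 362 genes with 7.69% of counts (interval 7.66 to 7.71) and a median of 550 counts per gene. Of these 362 genes, 319 were counted, beside 73.2% of all nuclear protein-coding genes. *SSR16* (7767 counts), a small subunit protein, was the most counted of them. The KEGG antenna pathway took 9.26% of counts with 23 genes and most of that on *LHCB1.3*. Among other pathways, oxidative phosphorylation took 1.69% and carbon fixation 2.55% of counts.

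Counts also moved with the number of isoforms that the tables list for a gene. Of the nuclear protein-coding genes, 16009 had 1 listed isoform and held 66.3% of all counts. Their median was 70.0 counts among those counted, against 27.0 for genes with 2 listed isoforms, 17.0 with 3, 14.0 with 4, 11.5 with 5 and 9.50 with 6 or more. Genes at 0 were more frequent among those with 1 listed isoform (34.8%) than among those with 2 or more (15.7%). Genes with 1 isoform were thus both more often at 0 and, when counted, higher.

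Genes with several listed isoforms were also mostly lower within pathways, where genes serve a shared function. The pathway medians are over all listed nuclear protein-coding genes, those at 0 included, unlike the medians above. In 88 of the 94 KEGG pathways with at least 10 genes of both kinds, genes with several listed isoforms had the lower median, and in 6 the higher. Pathways share genes and some contain others, so the 94 are not independent of each other. In photosynthesis the medians were 376 counts for 19 genes with several isoforms and 3034 for 29 genes with 1. In oxidative phosphorylation they were 82.0 counts for 59 genes with several isoforms and 699 for 71 with 1. In the ribosome pathway they were close, at 748 counts for 114 genes with several isoforms and 816 for 213 with 1. The antenna pathway was among the 6 exceptions, with 2098 counts for 12 genes with several isoforms and 375 for 11 with 1. Of the genes near 0 named above, *PSBS*, *FBA1*, *CA1*, *ACT2* and *PP2AA3* have 3 to 5 listed isoforms, whereas *LHCB4.1* has 1. How the counting treated reads that fit several isoforms is not given in the sources used here, and its part in these values was not tested.

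**Figure D2:**
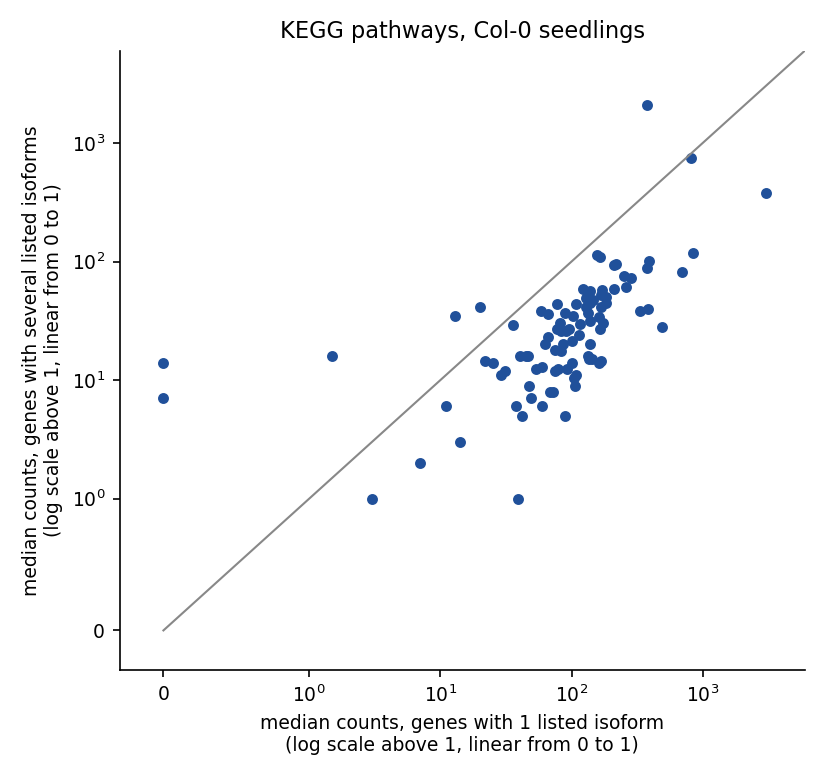
Median estimated counts per gene in the Col-0 library for 94 KEGG pathways, for genes with several listed isoforms (vertical axis) and genes with 1 (horizontal axis). Medians are over all listed nuclear protein-coding genes, including those without counts. Both axes are logarithmic above 1 count and linear below, the line marks equal medians, and 88 pathways lie below it.

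Members of gene families that share part of their sequence differed widely in counts. Of the 5 *LHCB1* genes, *LHCB1.3* had 255151 counts with 1 listed isoform. The neighbouring *LHCB1.1* had 5818 counts with 3 isoforms and *LHCB1.2* had 1321 counts with 2. *LHCB1.4* had 2874 counts, and *LHCB1.5* had 67 counts although it has 1 isoform. Of the 31-base stretches of the *LHCB1.3* transcript, 32.1% occur also in another of the 5. Among the Rubisco small subunit genes, *RBCS1A* had 41644 counts and shares 4.60% of such stretches with the other members. *RBCS2B* had 6972 counts with 37.1% shared, *RBCS1B* had 190 counts with 19.0% shared and *RBCS3B* had 148 counts with 25.1% shared. How reads from shared stretches were assigned is not given in the sources used here, and its part in these values was not tested.

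Organelle genes took a small share of the counts. The plastid genome, which encodes the core of both photosystems and the Rubisco large subunit, had 198 counts over 133 genes, or 0.00430% of the library (interval 0.00372 to 0.00494) and 0.357% of TPM. *PSBM* of photosystem II was its most counted gene with 27 counts. The mitochondrial genome had 2953 counts (0.0642%, and 0.855% of TPM) with 61 of its 152 genes counted, of which the ribosomal genes *RRN26* (1453 counts), *RRN18* (772 counts) and *RRN5* (213 counts) held most. The library protocol takes RNA by its poly(A) tail.

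Counts and TPM ranked short RNAs differently. Over 8934 isoforms with at least 50 counts and an annotated length, the ratio of counts to TPM was linear in spliced length (Pearson's r = 0.9999 across isoforms, which are not independent replicates) and reached 0 at 247 bases. Isoforms under 300 bases held 0.175% of counts and 15.5% of TPM. Small nucleolar RNA genes, which guide modification of ribosomal RNA, held 0.0691% of counts and 9.56% of TPM, and microRNA genes 0.0370% of counts and 4.49% of TPM. Of the 10 genes highest in TPM, 4 were not among the 30 most counted. *AT3G08520*, a ribosomal L41 protein, had 20678 TPM from 2540 counts. *MIR414*, a microRNA precursor, had 18830 TPM from 469 counts, the snoRNA *AT3G47348* had 8851 TPM from 189 counts and *RRN5* had 7931 TPM from 213 counts. Since a read of direct RNA sequencing comes from 1 molecule, counts are used below, and TPM only where named.

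**Figure D3:**
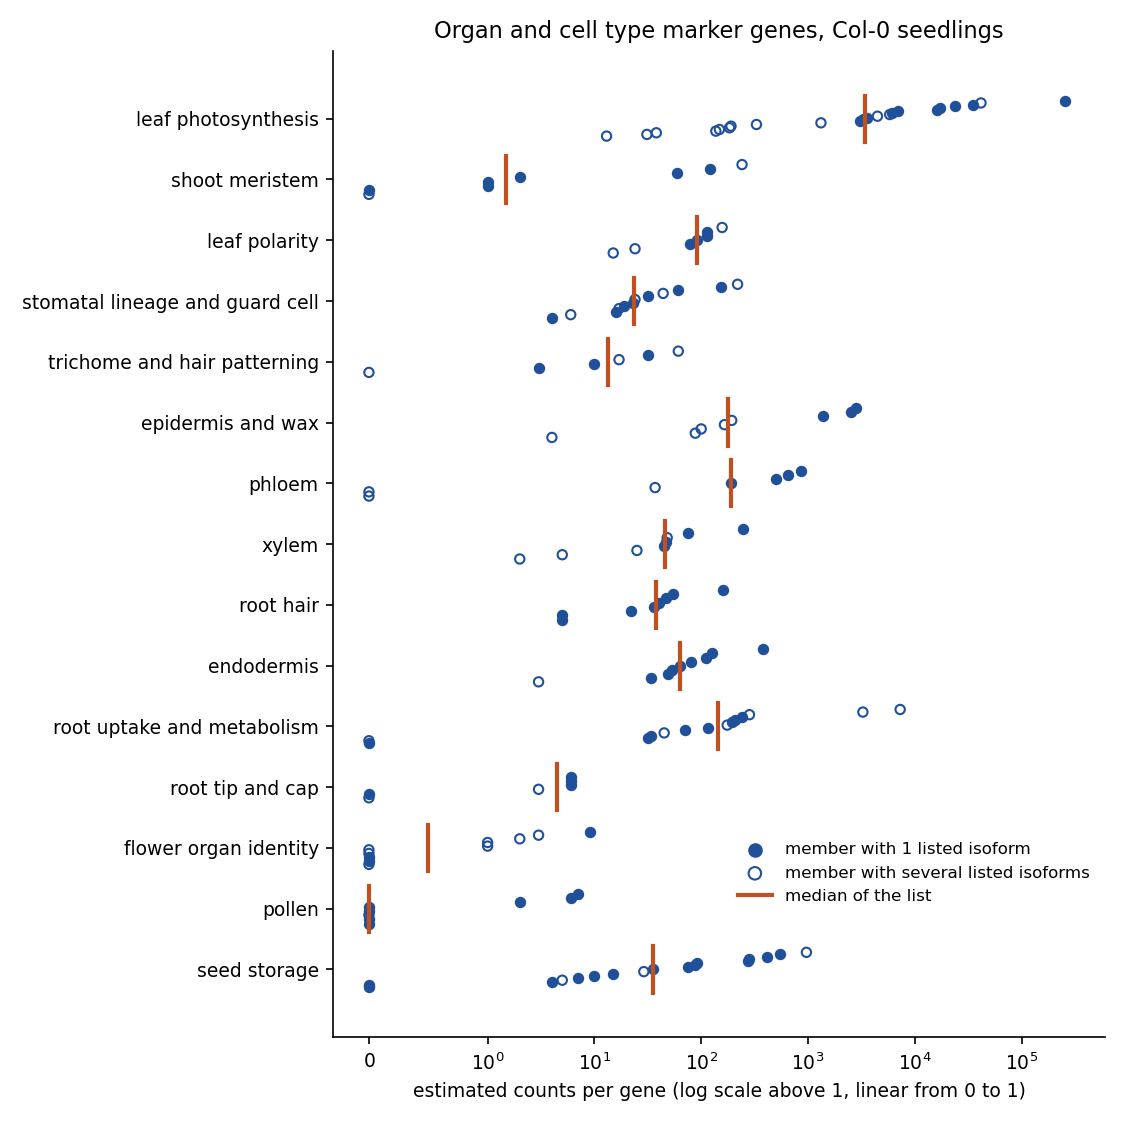
Estimated counts in the Col-0 library of each member of 15 organ and cell type marker lists, on an axis that is logarithmic above 1 and linear from 0 to 1. Filled points have 1 listed isoform, open points several, and the bar marks the median of the list, which is 3442 for leaf photosynthesis and 0 for pollen.

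Lists chosen with earlier results of these data known cannot serve as an independent check of the labelled tissue, which is only described here. There were 15 lists of organ and cell type markers, 150 members in all. Of these, 129 had at least 1 count (86.0%, beside 73.2% of all nuclear protein-coding genes) and 102 had at least 10 (68.0%, beside 53.0% of those genes). These totals pool leaf and root lists with flower, pollen and seed lists. The median over all protein-coding genes was 13.0 counts. Leaf, epidermis, vascular, root and endodermis markers were counted, whereas flower, pollen and root tip lists had no member with 10 counts.

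All 22 leaf photosynthesis genes had at least 10 counts, and the list's median was 3442. *LHCB1.3*, *RBCS1A* and *LHCA4* were highest. Its 13 members with several listed isoforms spanned 13 to 41644 counts with a median of 190, and its 9 members with 1 isoform spanned 3073 to 255151 counts with a median of 15994. The lower values were those of *FBA1* (13 counts) and the carbonic anhydrase *CA2* (31 counts).

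In the shoot meristem list, 6 of 8 members were counted and 3 reached 10 counts. *CLV1*, the receptor kinase that restrains stem cell number, had 241 counts. *KNAT1* (121 counts) and *STM* (59 counts) are homeobox genes that keep meristem cells undifferentiated. *CLV3*, the peptide ligand of *CLV1*, and *WUS*, the stem cell organizer, were listed at 0, and the organ boundary genes of this list had 1 or 2 counts each. All 7 leaf polarity genes had at least 10 counts and a median of 92.0. *FIL* (157 counts), which specifies the lower leaf side, *PHB* (114 counts), which specifies the upper side, and *AS1* (113 counts) were highest.

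All 12 stomatal markers were counted and 10 reached 10 counts. The guard cell gene *GC1* had 219 counts, *TMM*, a receptor-like protein that spaces stomata, had 153, and *KAT1*, a guard cell potassium channel, had 61. *MUTE*, which acts briefly in the guard mother cell, was lowest with 4 counts. Of the 6 trichome and hair patterning genes, 5 were counted, with *GL2* (61 counts), *CPC* (32 counts) and *TTG1* (17 counts) first and *GL3* listed at 0. Epidermis and wax markers were far higher: *PDF1* had 2789 counts, the lipid transfer gene *LTP2* 2549 and *FDH*, an enzyme of cuticle synthesis, 1375. All 8 members were counted and 7 reached 10 counts. These 3 leaders have 1 listed isoform each, and the 5 members with several lay at 4 to 193 counts.

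In the phloem list, 5 of 7 members were counted and all 5 reached 10 counts. *SUC2*, the sucrose loader of companion cells, had 858 counts, *PP2-A1*, a phloem lectin, had 656, and the sulfate transporter *SULTR2;1* had 496. *SEOR2* and the phloem regulator *APL* were listed at 0. All 8 xylem markers were counted and 6 reached 10 counts. The vessel protease *XCP2* had 248 counts, the laccase *LAC4* 76, and *CESA4*, a secondary wall cellulose synthase, 48. The other secondary wall cellulose synthases, *CESA8* with 47 counts and *CESA7* with 45, were within counting error of it, and these 3 enzymes work in 1 complex.

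Root markers were held in 4 lists, of which root tip and cap had the lowest median count. All 8 root hair genes were counted and 6 reached 10 counts, with the wall proteins *PRP3* (159 counts) and *PRP1* (47 counts) and the expansin *EXPA18* (55 counts) first. All 9 endodermis genes were counted and 8 reached 10 counts. *CASP1*, which builds the Casparian strip, had 380 counts, its relative *CASP2* had 127, and *SCR*, which specifies the endodermis, had 111. Root uptake and metabolism genes had 12 of 14 members counted, all 12 with at least 10 counts. *PYK10*, the beta-glucosidase of root ER bodies, had 7287 counts, its lectin partner *JAL30* had 3263 and the triterpene gene *THAS1* had 283. The nitrate transporter *NRT2.1* and the auxin carrier *PIN2* were listed at 0. In the root tip and cap list, 4 of 6 members were counted and none reached 10 counts. *PLT1*, *PLT2* and *WOX5*, which act around the root stem cells, had 6 counts each, and *BRN1* and *BRN2* of the root cap were listed at 0.

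Flower and pollen genes stayed near 0. Of 10 flower organ identity genes, 5 were counted and their sum was 16 counts. *TFL1*, which represses flowering in the shoot apex, had 9 counts, *SEP3* had 3 and *PI* had 2, whereas *AP1*, *CAL* and *AP3* were among the 5 listed at 0. Of 8 pollen genes, 3 were counted, with a sum of 15 counts. *PRF4* (7 counts), *AGP6* (6 counts) and *AGP11* (2 counts) were the 3, and *VGD1*, *PPME1* and *ADF7* were among the 5 listed at 0. Of these 18 genes, 10 have 1 listed isoform, and these too had at most 9 counts.

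Seed storage genes were counted although the seedlings were 14 days old. In this list 15 of 17 members had at least 1 count (88.2%, beside 73.2% of all nuclear protein-coding genes). At least 10 counts were reached by 12 members (70.6%, beside 53.0%). The sum was 2840 counts, or 0.0617% of the library (interval 0.0595 to 0.0640). *CRU3*, a cruciferin storage globulin, had 966 counts, the seed peroxiredoxin *PER1* had 543 and *OLEO2*, a coat protein of seed oil bodies, had 417. Of the regulators of seed development in this list, *ABI3* had 15 counts (interval 8.40 to 24.7) and *FUS3* had 4, and *LEC1* and *LEC2* were listed at 0.

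The circadian clock of *Arabidopsis* runs as a loop of repressors that act in turn: *CCA1* and *LHY* at dawn, the *PRR* genes through the day, and *TOC1* with the evening complex of *ELF3*, *ELF4* and *LUX* at dusk. *CCA1* and *LHY* bind a promoter sequence named the evening element, AAAATATCT, and hold evening genes down in the morning, while *RVE8* and its relatives bind it to raise them later in the day. Within 500 bases before the annotated gene start (TAIR10.1, either strand), it occurred in 7 of the 11 evening genes listed here (63.6%), in 2 of 15 morning genes, in 2 of 4 midday genes and in none of 4 clock genes with little daily change, against 4.44% of 27424 nuclear protein-coding genes. Other motifs were searched in the same way. The CCA1-binding site, AAAAATCT, occurred in 1 of 11 evening genes and 3 of 15 morning genes, against 12.5% of all those genes. The G-box, CACGTG, occurred in 2 of 11 evening genes and 6 of 15 morning genes, against 9.35%. A match describes letters only and is no proof of binding. The 7 evening genes are shown with 30 bases around the match nearest the gene start, on the gene's strand, with the element, or its reverse complement AGATATTTT, in capitals.
GRP7 (chr2:9266569-9266598, minus strand): gtcccaagatAAAATATCTtttctcgcatc
LUX (chr3:17182979-17183008, plus strand): tagaagatctAAAATATCTagctaactcgt
COR27 (chr5:17199911-17199940, minus strand): gcagttgaagAAAATATCTttgatattttt
CAT3 (chr1:7142883-7142912, plus strand): acctagcaaaAAAATATCTaagtgggggca
TOC1 (chr5:24674802-24674831, plus strand): aaatatcatgAGATATTTTctccaagatga
BOA (chr5:24003835-24003864, plus strand): tgcgggtaaaAGATATTTTagattatctag
GRP8 (chr4:18275217-18275246, minus strand): taaaagatattcttacaaAGATATTTTttg

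All 11 evening genes were counted, and each had at least 67 counts. *GRP7*, an RNA-binding protein and clock output, had 11408 counts (interval 11200 to 11619), and its paralog *GRP8* had 643. Of the evening complex, *ELF4* had 848 counts, *LUX* 718 and *ELF3* 67, and *BOA*, a relative of *LUX*, had 211. *COR27* (616 counts) and *COR28* (100 counts) are clock and cold regulators. *TOC1*, the dusk repressor, had 503 counts, the catalase *CAT3* 157, and *GI*, which links the clock to flowering, 67. With *GRP7* left aside, the evening genes thus spanned 67 to 848 counts.

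Genes known to peak near dawn were spread widely. *CCA1* and *LHY* had 1 count each (interval 0.0253 to 5.57). *PRR9*, the earliest *PRR* gene, *RVE7*, *RVE8*, an activator of evening genes, and *COL1* were listed at 0. The *LNK* coactivators had 9 (*LNK1*), 29 (*LNK2*), 11 (*LNK3*) and 22 (*LNK4*) counts. *CDF1*, a repressor of *CO*, had 63 counts, and *RVE1* and *COL2* had 13 each. *RVE4* (521 counts) and *RVE2* (329 counts), MYB-like relatives of *CCA1*, were the highest of the list and reached the level of the evening genes. Of the 15 morning genes, 11 were counted (73.3%, beside 73.2% of all nuclear protein-coding genes) and 8 reached 10 counts (53.3%, beside 53.0%), and their median of 11 was close to the 13.0 of all those genes. As a list the morning genes thus stood at the level of the library, although *CCA1* and *LHY* lay near 0.

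Genes of midday and afternoon were uneven, with a median of 42.5 counts and a sum of 290. *FKF1*, a blue light receptor, had 204 counts and *PRR5* had 81, whereas *PRR7* had 4 and *PRR3* had 1. *ZTL* (188 counts), *DET1* (145 counts), *TIC* (94 counts) and *LKP2* (73 counts), whose transcripts change little over the day, were all counted. The evening list summed to 15338 counts and the morning list to 1012, a ratio of 15.2. Without the most counted member of each list the ratio was 8. Several isoforms are listed for 9 of the 11 evening genes, whose counts ran from 67 to 11408 with a median of 211, and for 11 of the 15 morning genes, whose counts ran from 0 to 521 with a median of 9. For members with 1 listed isoform, a restriction chosen after seeing the data, *ELF4* (848 counts) and *TOC1* (503 counts) stood against *RVE2* (329 counts), *CDF1* (63 counts), *COL2* (13 counts) and *COL1* (0 counts), and the ratio was 3.34. *COL1* is covered whole by a long noncoding RNA gene on the other strand.

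**Figure D4:**
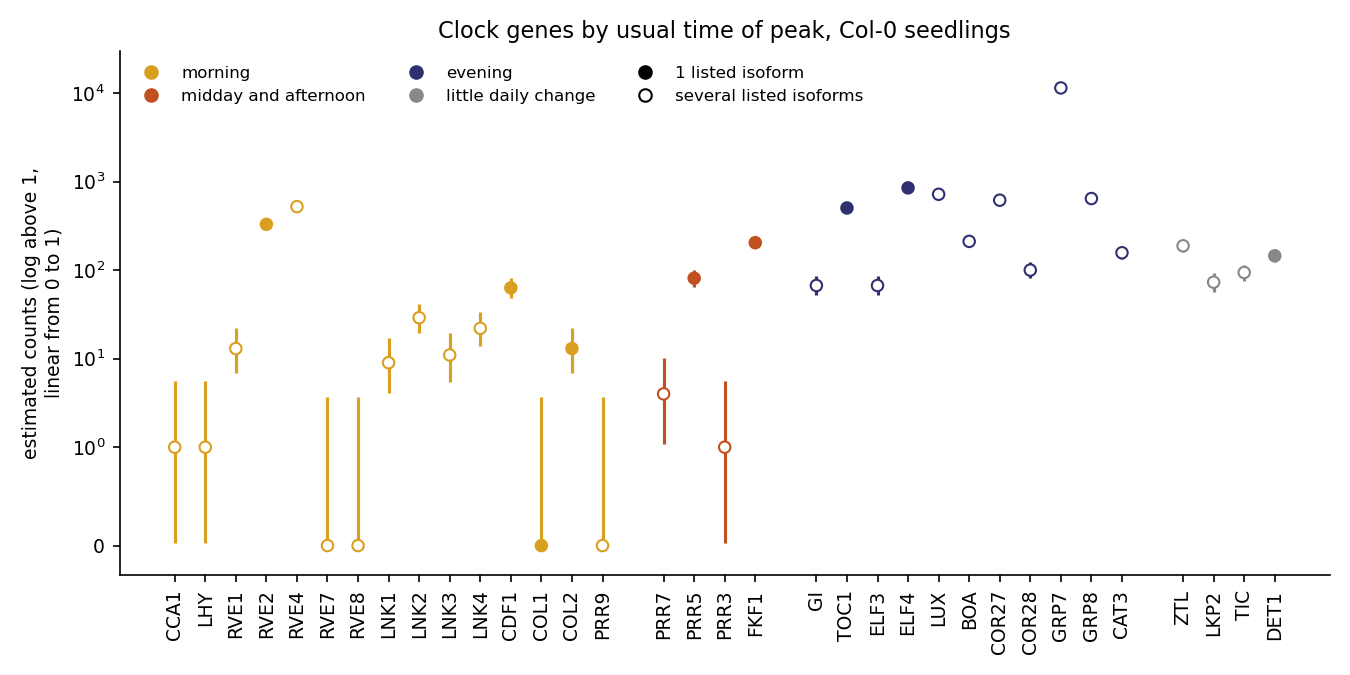
Estimated counts of 34 clock genes in the Col-0 library, grouped by the time of day at which each is known to peak, with exact Poisson intervals and an axis that is logarithmic above 1 and linear from 0 to 1. Filled points have 1 listed isoform and open points several, and all evening genes lie at or above 67 counts while *CCA1* and *LHY* lie at 1.

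Genes that respond to growth conditions were described with 10 further lists of 79 members, of which 55 had at least 10 counts (69.6%, beside 53.0% of all nuclear protein-coding genes). Cold and drought genes stood highest as a group, since all 11 reached 10 counts, with a median of 955. *KIN2* had 19684 counts, *COR15B*, which shields chloroplast membranes during freezing, had 2631, and the dehydrin *COR47* had 2383. The transcription factors upstream of them, *CBF1*, *CBF2* and *CBF3*, had 43, 44 and 22 counts. In the darkness and sugar starvation list all 13 members were counted and 10 reached 10 counts. *DRM2* had 31373 counts, *EXL2* 3009 and *SEN5* 570. The dark-induced *DIN* genes of this list were split, since *DIN6* had 161 counts and *DIN1* 72, whereas *DIN2* and *DIN10* had 2 each.

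All 9 light-induced genes were counted and 7 reached 10 counts. *CAB1* is *LHCB1.3*, and *PORB*, which reduces protochlorophyllide in the light, had 4258 counts and the nitrate reductase *NIA2* 3332. Genes of strong light stress were low: *ELIP1* had 13 counts and *ELIP2* had 1. Of the 5 etiolation genes, 4 were counted and 3 reached 10 counts. The phytochrome partners *PIF4* (109 counts), *PIF5* (49 counts) and *PIF1* (18 counts) led, and *PIF3* was listed at 0. *PORA*, a protochlorophyllide oxidoreductase and the only member of this list that is not a *PIF* gene, had 4 counts (interval 1.09 to 10.2). All 5 have several listed isoforms.

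Stress and hormone markers were uneven beside the median of 13.0 counts of all nuclear protein-coding genes. The heat and jasmonate lists had medians below it. The salicylic acid and senescence lists had medians above it. All 7 heat genes were counted, but only 3 reached 10 counts, namely *HSP70* (59 counts), *HSP90.1* (37 counts) and *HSP101* (18 counts), and the small heat shock genes had 1 to 3 counts. The salicylic acid list had 5 of 6 members with at least 10 counts, and *PAD4* (56 counts), *EDS1* (55 counts) and *PR5* (27 counts) were highest. Of the 6 jasmonate and wounding genes, 5 were counted and only *AOS*, an enzyme of jasmonate synthesis, reached 10 counts, with 799. *VSP2* had 6 counts and *VSP1* 5, and the defensin *PDF1.2A* was listed at 0. In the senescence list 5 of 6 members were counted. *ORE1* (124 counts) and *NAP* (72 counts) are NAC factors of leaf ageing, *SAG29* had 62 counts, and *SAG12*, the usual marker of late senescence, was listed at 0.

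Nutrient markers gave a mixed picture. All 7 phosphate starvation genes were counted and 4 reached 10 counts. The acid phosphatase *PAP17* had 267 counts, *SPX1* had 194 and the noncoding RNA *IPS1* had 64. All 9 iron deficiency genes were counted and 8 reached 10 counts. *FER1*, which stores iron and is high when iron is ample, had 901 counts, and of the genes raised by deficiency, *IMA1* had 54 and *BHLH101* 50.

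Isoforms were counted in 27312 of 56591 listed cases. Of the 21223 counted genes, 16539 (77.9%, interval 77.4 to 78.5) had 1 counted isoform and 4684 (22.1%) had 2 or more: 3648 had 2, 779 had 3, 184 had 4 and 73 had 5 or more. Genes with 2 or more counted isoforms took 22.9% of the counts. *AT5G64460* had the most, with 10 counted isoforms. Many genes could not have several, because 11365 of the counted genes have 1 isoform listed. Of the 9858 counted genes with several listed, 4684 had several counted (47.5%, interval 46.5 to 48.5).

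The share depended on depth and on the list. Among genes with several listed isoforms, 33.6% of those with 1 to 9 counts had several counted, 56.0% of those with 10 to 99 counts, 53.0% of those with 100 to under 1000 counts and 68.2% (interval 61.8 to 74.2) of those with 1000 or more. It was 37.0% with 2 listed isoforms, 53.0% with 3, 62.9% with 4 and 68.8% with 5 or more. All listed isoforms were counted in 290 of 2283 genes with 3 listed and in 18 of 1223 genes with 5 or more. If each isoform needed 3 counts, 2230 genes had several, and with 10 counts 879 had.

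**Figure D5:**
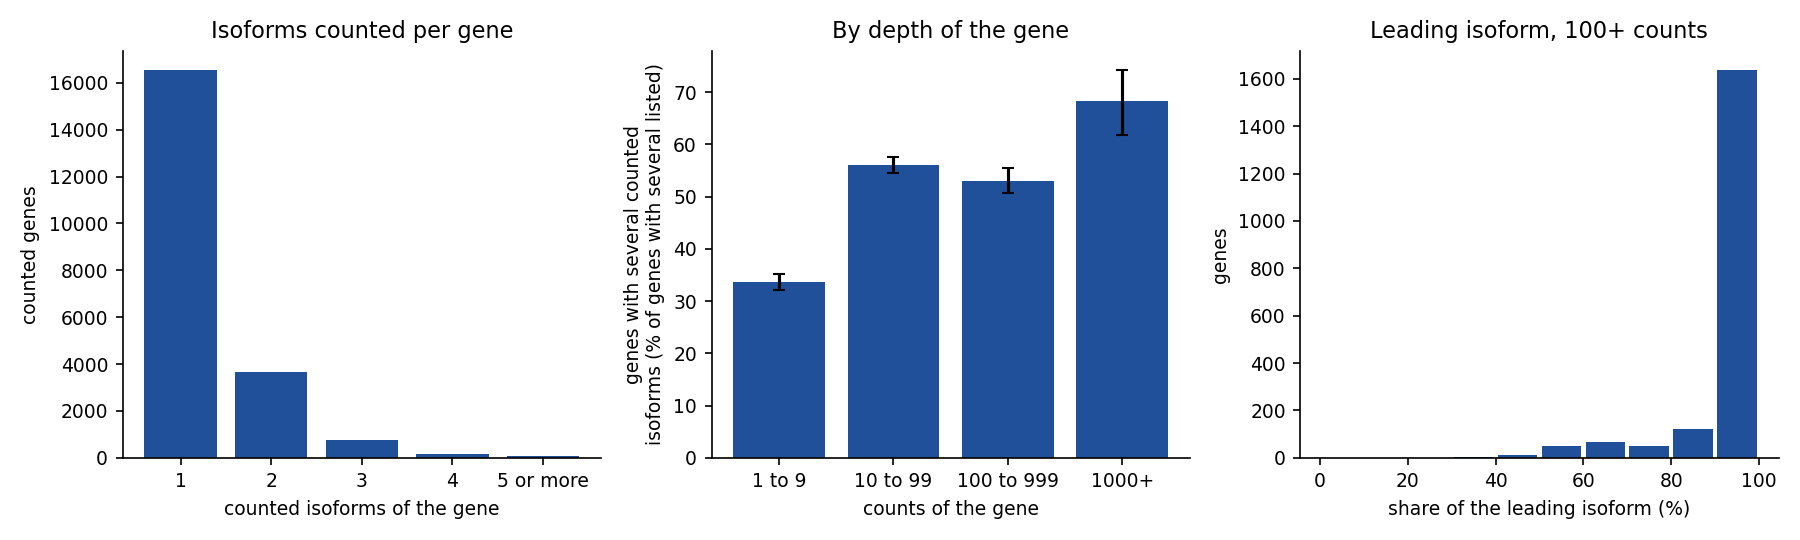
Left, number of counted genes by counted isoforms (16539 with 1). Middle, percentage of genes with several listed isoforms that had several counted, by counts of the gene, with Clopper-Pearson intervals. Right, share of a gene's counts on its leading isoform for 1940 genes with at least 100 counts and several listed isoforms, of which 1637 lie at 90% or more.

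Where several isoforms were listed, a single isoform usually took the gene. Over 1940 genes with at least 100 counts and 2 or more listed isoforms, the leading isoform held a median of 99.8% of the gene's counts (quartiles 97.1% and 100%). It held 90% or more in 1637 genes and under 50% in 14. The isoform numbered 1 in the annotation led in 1576 genes (81.2%, interval 79.4 to 83.0). The tables also hold 2075 isoforms with a name ending in t and a number, which the reference annotation lacks. Of these, 1061 were counted, they held 0.751% of counts, and they led in 43 of the 1940 genes.

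In 170 of the 1940 genes (8.76%, interval 7.54 to 10.1) the second isoform held at least 20% of the counts. Both leading isoforms were in RefSeq for 132 of them. The introns of the 2 isoforms alone were compared, so differences at the transcript ends were not classed. The isoforms differed by an alternative 3' splice site in 42 genes, by a retained intron in 35 and by an alternative 5' splice site in 22. In 18 genes they differed by an intron outside the span of the other isoform. The coding sequence was the same in 60 of the 132. Reads begin at the 3' end of the RNA, so a truncated read cannot tell apart isoforms that differ only near the 5' end, and how such reads were assigned is not given in the sources used here.

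The 10 most counted of these 170 genes include clock, photosynthesis and housekeeping genes. *GRP7* had 8074 counts on its isoform 1 and 3333 counts (29.2%) on an isoform the reference lacks. *MLP43*, an MLP-like protein, had 1978 counts on such an added isoform and 1357 on isoform 1. *LHCB1.4* had 1447 counts on its added isoform and 1426 on isoform 1, and *PSAG*, a photosystem I subunit, had 1031 on isoform 1 and 950 on its added isoform. In both of these the 2 isoforms were nearly level, at 50.3% and 52.1% for the leading isoform. The intervals, 48.5 to 52.2 for *LHCB1.4* and 49.8 to 54.3 for *PSAG*, both include 50%. A transketolase gene of the Calvin cycle, *AT3G60750*, had 1631 counts on isoform 1 and 1115 on an added isoform. A cytochrome c oxidase-like gene, *AT4G37830*, had 1327 on isoform 1 and 610 on an added isoform.

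For the other 4 genes both isoforms are in the reference. *SAMDC*, which makes the substrate for polyamine synthesis, had 1116 counts (60.4%) on isoform 1, which keeps an intron of 103 bases 5' of the coding region (chromosome 3, 509202 to 509304), and 728 on isoform 3, which removes it. *CHLM*, a chlorophyll synthesis methyltransferase, had 750 counts (62.4%) on isoform 3, which removes an intron of 193 bases 3' of the coding region, and 446 on isoform 2, which keeps it. *UBC10*, a ubiquitin-conjugating enzyme, had 2082 counts (70.1%) on isoform 4 and 773 on isoform 1, which differ 3' of the coding region. In these 3 genes the protein is the same. The annotated transcript ends differ as well, so the counts do not measure the choice of intron alone. Spliced lengths are 1953 bases for *SAMDC* isoform 1 and 1799 for isoform 3. For *CHLM* they are 1481 bases for isoform 3 and 1330 for isoform 2, although isoform 2 keeps the intron.

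*MT3*, a metallothionein of leaves, is the exception among these 4, since its isoforms differ in protein. Isoform 1 had 6824 counts (61.5%, interval 60.6 to 62.4) and isoform 2 had 4268. They use 5' splice sites 6 bases apart on chromosome 3, and encode 69 and 67 residues. Their annotated ends differ too, with spliced lengths of 580 bases for isoform 1 and 648 for isoform 2. Both sites are shown with 15 bases of exon in capitals and 15 bases of intron in lower case, on the gene's strand.
MT3 isoform 1 (chr3:5181261-5181290, minus strand): CAAGACCCAGTGCGTgtaagtgtcctctgt
MT3 isoform 2 (chr3:5181267-5181296, minus strand): TGCTGACAAGACCCAgtgcgtgtaagtgtc
The intron begins with gt at both sites.

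The 18 genes of a list known for alternative splicing were looked at by name. Beside *GRP7*, few were deep enough. *GRP8* had 637 of 643 counts on isoform 1. *SR30*, a splicing factor, had 145 of 151 counts on isoform 2, and *FCA*, a flowering regulator, had 90 of 97 on isoform 1. *RCA*, Rubisco activase, had 137 counts, of which 78 lay on an added isoform, 39 on isoform 2, 20 on isoform 3 and 0 on isoform 1. *U2AF65A* had 42 counts, all on isoform 2, and *RS31* had 131 on its only listed isoform. *ZIFL1* (33 counts), *HAB1* (25 counts), *FLM* (21 counts), *PTB2* (7 counts), *TFIIIA* (6 counts) and *PRR7* (4 counts) were too thin to give a share with a narrow interval. *FLM*, a repressor of flowering with 13 listed isoforms, had 9, 8 and 4 counts on 3 of them. *SR34*, *PPD* and *CCA1* had 1 count each, and *PIF3* and *JAZ10* were listed at 0.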

How the data were processed

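Whole seedlings of each genotype were pooled and sequenced as direct RNA on a PromethION by the authors, 1 library per genotype. The authors called bases with Guppy, filtered reads with Nanofilt, corrected them with Fclmr2 and mapped them with minimap2 2.17-r941 and SAMtools 1.10, the versions per the labels. They deposited an estimated count per isoform, not normalized, and a TPM value scaled to length. The tool, annotation and build behind these tables are not given in the sources used here, nor is the use of strand.

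Estimated counts of isoforms were summed per locus and rounded, giving 4602836 counts in Col-0, 41.8% of the isoform values above 0 not being whole within 0.001. The 481 entries without a locus (0.177% of counts) were kept as genes of their own. Names, coordinates and sequences come from RefSeq TAIR10.1, matched by locus. All 273 listed loci were found. Genes and lists were chosen with earlier results of these data known. Named are the 30 most counted genes, the 10 highest in TPM, all clock genes, 3 members of each marker list with up to 3 at 0, 2 of each function group, the 10 most counted genes whose second isoform has 20% and the splicing examples. Others were chosen after their values were seen. Function groups are word matches in product names. No test was possible with 1 library. Intervals were tried only on counts simulated with the same counting error that they assume. Such a trial cannot show how they hold for estimated counts, where reads are shared out between isoforms. Python 3.11.15, scipy 1.17.1, numpy 2.4.6, matplotlib 3.10.9 and pandas 2.3.3 were used. Deposited correlation coefficients between libraries were not used.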

Additional observations from a re-analysis of the deposited data

How the results depend on the processing

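With 1 Col-0 library no replicate could be left out, and no paired analysis was possible because the genotypes have 1 library each. In TPM the 10 highest genes took 13.2% in place of 12% of counts, the plastid genome 0.357% in place of 0.00430%, and antenna and photosystem genes 12.4% in place of 14.8%. Of 18 function groups, 14 had a lower share in TPM and 3 a higher one, at 0.417 to 1.57 times the share of counts. The evening to morning ratio of 15.2 was 20 in TPM, 8 without the most counted member of each list, and 3.34 for members with 1 listed isoform, the last chosen after seeing the data. Genes with several counted isoforms numbered 4684, against 2230 with 3 counts per isoform, 879 with 10 counts, 2935 with 10% of the gene's counts and 1064 among genes with at least 100 counts. Genes counted (21223, and 14958 to 20994 under 5 alternatives) and the organ and condition totals stayed within 1.5 times their main values. The organ total of 129 members fell to 102 with at least 10 counts. The median leading share stayed at 99.4% to 99.9%. Of 65 marker list and setting pairs, 11 moved by over 1.5 times. With the library thinned to 50% of its counts, 19891 genes were counted and 3560 had several counted isoforms.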
